A study of Mus musculus with 9 samples.

Results

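The 9 genes described here encode signaling proteins that sit just downstream of, or beside, the T cell receptor (TCR). They were chosen by name, as the rows of the TPM table for Lat, Lcp2, Grap2, Plcg1, Vav1, Fyn, Cd28, Cd5 and Cd6. Each name matched 1 of the 55487 genes listed, and all 9 were among the 15536 genes that reached 1 TPM in 3 or more libraries and were therefore tested. TPM is a measure of transcript abundance in which reads are divided by transcript length and every library is scaled to the same total, so that levels can be set side by side between genes as well as between libraries.

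When the TCR is engaged, the Src family kinases Lck and FYN and the kinase ZAP-70 phosphorylate LAT, an adaptor in the plasma membrane, and GADS (encoded by Grap2) then bridges LAT to SLP-76 (encoded by Lcp2). Phospholipase C-γ1 (Plcg1), which generates the second messengers of calcium and protein kinase C signaling, and VAV1, an exchange factor for Rac GTPases, are held on this scaffold. CD28 delivers the main costimulatory signal, whereas CD5 and CD6 are paired scavenger receptor cysteine-rich surface proteins that recruit signaling molecules and adjust the strength of the TCR signal. The study asked which transcripts accompany the effect of TRAIL, a cytokine related to tumor necrosis factor, on T cell activation, and these genes make up the machinery through which both Abs used for stimulation act.

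The 9 libraries came from splenic CD4+ T cells of wild type C57BL/6 mice, described in the study's methods as females of 6 to 7 weeks and as Trail-r+/+. A first group of 3 libraries came from cells in culture medium alone, for which no culture time was found in the sources used here. A second group of 3 came from cells given Abs against CD3 at 3 µg/ml and against CD28 at 2 µg/ml for 24 h, and the last 3 came from TRAIL-treated activated T cells, which received the same Abs and 10 µg/ml of TRAIL over the same 24 h. Neither cells lacking TRAIL-R nor unstimulated cells with TRAIL were analysed here. No source says that the 3 libraries of a group came from separate mice or cultures, so p-values measure only the spread between these libraries, which may be technical. The cells were purified by negative selection, which leaves behind cells that its Abs do not label.

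TPM values hold no read totals, so the depth of each library is unknown and each library sums to the same total. Between 13691 and 14909 genes per library reached 1 TPM. Among the markers, those of T cells summed to 4626 to 4734 TPM in medium, 4122 to 4583 TPM after stimulation and 4656 to 4865 TPM after stimulation with TRAIL, and none of the 9 genes of that list was at the floor of the table in any library. Every stimulated sum of T cell markers was thus below every sum in medium, and single markers went both ways, with Cd2 at 392, 839 and 446 TPM and Cd3g at 615, 299 and 595 TPM on average in the 3 groups. The sum of 8 B cell markers ran from 2244 to 2402 TPM in medium, from 164 to 185 TPM after stimulation and from 935 to 1067 TPM with TRAIL. For 11 myeloid markers the corresponding ranges were 1960 to 2275, 90.0 to 114 and 1418 to 1674 TPM, and for 6 erythroid markers they were 2081 to 2534, 24.8 to 39.6 and 610 to 660 TPM. All 8, 11 and 6 of these markers passed the test as lower after stimulation than in medium, and all passed as higher with TRAIL than without it. Dendritic cell markers (5 genes) summed to 51.7 to 56.8, 4.63 to 6.77 and 31.9 to 34.2 TPM, NK cell markers (5 genes) to 174 to 213, 67.3 to 74.0 and 67.0 to 76.9 TPM, and CD8 T cell markers (2 genes) to 110 to 118, 94.2 to 105 and 46.9 to 49.4 TPM. Of the NK cell markers, 4 passed as lower after stimulation and as higher with TRAIL against stimulated cells, among them Ncr1 at 40.1, 2.64 and 8.44 TPM, while Prf1, at 32.1, 43.9 and 18.8 TPM, passed in the opposite directions. In such bulk libraries, fewer cells of a type and less RNA per cell cannot be told apart, and the part of other cell types in the results below was not tested. Stimulated replicate 1 also stood apart. Across 9583 tested genes that averaged 10 TPM or more and had a known transcript length, its deviations from the group mean fell with transcript length (Spearman's rho -0.634 across genes, which are not independent replicates), and genes whose longest transcript had 4915 bases or more deviated there by a median of -0.350 on the log2 scale. In the other 8 libraries rho lay between -0.367 and 0.590. The tests that use stimulated libraries were therefore also run without this one. Of the 9 T cell markers, 1 passed as higher and 2 as lower after stimulation, and 1 and 6 did without it. With TRAIL against stimulated cells 4 passed as higher and 1 as lower, and 6 and 1 did without it. The counts of B cell, myeloid and erythroid markers were the same without it.

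The genes lie on 8 chromosomes of GRCm38, at positions in the deposited table that equal those of GENCODE M21. Lat (ENSMUSG00000030742) occupies 126363824 to 126369570 of the minus strand of chromosome 7, Lcp2 (ENSMUSG00000002699) 34046920 to 34092295 of the plus strand of chromosome 11 and Grap2 (ENSMUSG00000042351) 80572594 to 80652854 of the plus strand of chromosome 15. Plcg1 (ENSMUSG00000016933) lies on the plus strand of chromosome 2 at 160731300 to 160775760, Vav1 (ENSMUSG00000034116) on the plus strand of chromosome 17 at 57279100 to 57328031, Fyn (ENSMUSG00000019843) on the plus strand of chromosome 10 at 39368855 to 39565381 and Cd28 (ENSMUSG00000026012) on the plus strand of chromosome 1 at 60716800 to 60773359. Cd5 (ENSMUSG00000024669), at 10717116 to 10739002, and Cd6 (ENSMUSG00000024670), at 10789341 to 10830058, are near neighbours on the minus strand of chromosome 19. The strand setting of the authors' counting was not found in the sources used here, and Grap2 contains a gene on its own strand, Gm49553, listed at up to 28.9 TPM, whose reads may not be separable from its own.

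Promoter windows of 250 bases upstream of the transcription start were available for 7 of the 9 genes in RefSeq sequences of build GRCm38.p6. Those of Grap2 and Lat are shown because these genes fell after stimulation and were higher again with TRAIL, and that of Vav1 is shown as a gene that passed in no comparison. Each is written 5′ to 3′ on the strand of the gene, and capitals mark matches to 5 short motifs searched on both strands, which were ETS (GGAAGT), RUNX (TGTGGT), AP-1 (TGANTCA), NFAT (TGGAAA) and the GC box (GGGCGG). The Grap2 window is chr15:80623233-80623482 on the plus strand, it overlaps no annotated exon and it ends at a start inside the annotated gene. The Lat window is chr7:126369569-126369818 on the minus strand, at the start of the gene. The Vav1 window, chr17:57278850-57279099 on the plus strand, overlaps no annotated exon and ends at the base before the gene.
Grap2: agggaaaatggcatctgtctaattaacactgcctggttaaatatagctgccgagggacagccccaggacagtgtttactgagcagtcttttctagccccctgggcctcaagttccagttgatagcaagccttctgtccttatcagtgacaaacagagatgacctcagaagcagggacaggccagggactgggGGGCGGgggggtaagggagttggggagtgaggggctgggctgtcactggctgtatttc
Lat: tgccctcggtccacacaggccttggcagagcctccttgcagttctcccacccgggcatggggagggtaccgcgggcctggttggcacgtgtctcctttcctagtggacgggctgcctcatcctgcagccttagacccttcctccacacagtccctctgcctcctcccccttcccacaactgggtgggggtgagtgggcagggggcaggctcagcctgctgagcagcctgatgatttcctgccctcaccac
Vav1: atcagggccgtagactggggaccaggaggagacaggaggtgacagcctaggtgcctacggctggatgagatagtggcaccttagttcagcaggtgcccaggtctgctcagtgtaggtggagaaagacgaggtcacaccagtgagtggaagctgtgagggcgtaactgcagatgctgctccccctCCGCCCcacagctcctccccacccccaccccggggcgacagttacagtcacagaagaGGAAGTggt
The Grap2 window held a GC box beginning 58 bases before the start. The Lat window held none of the 5 motifs. The Vav1 window held an ETS match beginning 9 bases before the start and a GC box, on the other strand, beginning 66 bases before it. Of the 7 windows, 4 (Grap2, Plcg1, Vav1 and Fyn) held a GC box and 2 (Vav1 and Cd5) an ETS match, compared with 32.7% and 19.7% of 32851 promoter windows of the same length. None of the 7 held a RUNX, AP-1 or NFAT match, which 14%, 6.75% and 18.6% of all windows did.

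All 9 genes were well expressed in every group, between 49.3 and 584 TPM in single libraries. In medium, Lat was highest at 555 ± 19.7 TPM (mean ± SD, n = 3 libraries), followed by Grap2 at 295 ± 29.0 TPM and Cd5 at 253 ± 28.2 TPM, whose libraries overlapped. Cd6, Fyn, Lcp2 and Vav1 followed at 202, 177, 161 and 142 TPM, each overlapping the next, and Cd28, at 120 TPM, lay below Vav1 with no overlap. Plcg1, at 118 TPM, overlapped Cd28. Lat kept the first place in stimulated and in TRAIL-treated cells, with no overlap with the second gene. The order below it changed, since Grap2 held place 2 in medium, place 9 beside Plcg1 after stimulation and place 3 with TRAIL, whereas Cd28 held places 8, 6 and 4. With TRAIL, the libraries of Cd5, Grap2, Cd28, Fyn, Cd6 and Lcp2 overlapped from each gene to the next.

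**Figure D1:**
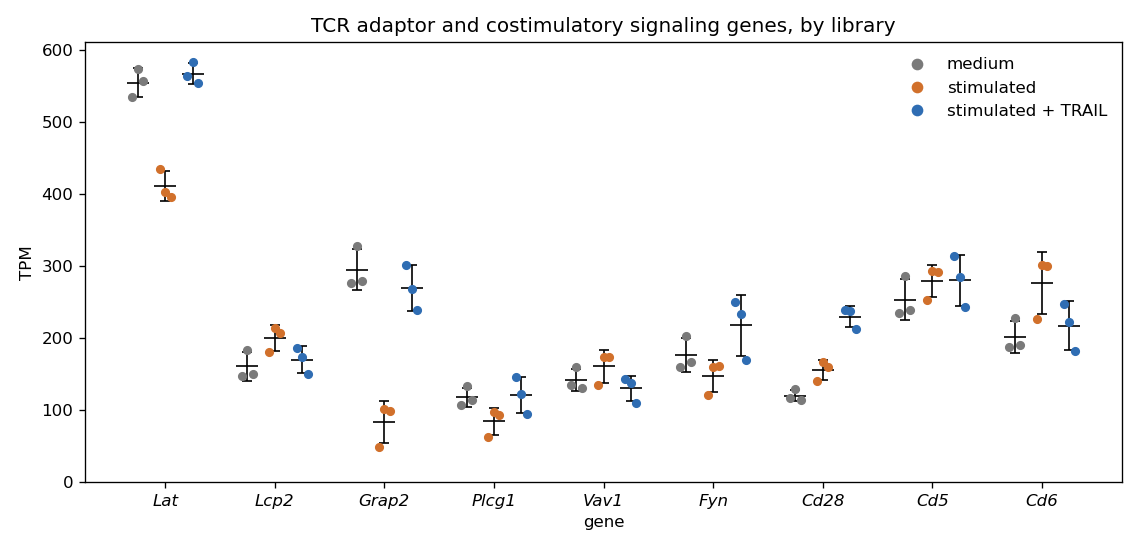
TPM of the 9 genes (horizontal axis) in each library, on a linear vertical axis from 0. Grey points are medium, orange points stimulated and blue points stimulated with TRAIL, and black bars give the mean ± SD of 3 libraries. Grap2 sits between 49.3 and 101 TPM after stimulation and at 239 TPM or more in every other library, and Cd28 steps up from medium to stimulated to TRAIL-treated libraries without overlap.

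The first comparison was that of stimulated cells with cells in medium, which asks how 24 h of TCR and CD28 engagement changed the transcripts of its own signaling proteins. Grap2, Lat and Plcg1 fell, and Lcp2, Cd28 and Cd6 rose, so that the members of the LAT complex did not move together. Of the 9 genes, 6 passed the test at an adjusted p under 0.05 (limma on log2(TPM + 1), Benjamini-Hochberg adjustment over all genes tested), against 68.7% of all genes tested (28.8% higher and 40.0% lower). The share was thus near the background. Only Grap2 changed by at least 1 on the log2 scale, a size reached by 31.9% of all genes. The libraries of the groups did not overlap for 4 of the 9 genes (Cd28 higher, and Lat, Grap2 and Plcg1 lower), compared with 72.6% of all genes (29.9% higher and 42.6% lower). The median log2 fold change of the 9 genes was 0.14, beside -0.15 for all genes tested.

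Among the adaptors, Grap2, which encodes the bridge between LAT and SLP-76, measured 277, 329 and 280 TPM in medium replicates 1 to 3 and 49.3, 101 and 99.2 TPM in the stimulated replicates. Every stimulated library was below every medium library, and stimulated replicate 1 lay below the other 2 stimulated libraries. The log2 fold change was -1.88 (SE 0.24, adjusted p = 5.32e-05), or 3.54-fold lower by the ratio of means. Without stimulated replicate 1 it was -1.54 (adjusted p = 1.84e-06). Lat, which encodes the membrane scaffold, measured 534, 574 and 557 TPM in medium and 435, 403 and 396 TPM after stimulation. These groups did not overlap, and the log2 fold change was -0.43 (SE 0.08, adjusted p = 0.000891), or -0.47 (adjusted p = 0.000607) without stimulated replicate 1. Lcp2, which encodes the adaptor held by GADS, went the other way, from 148, 184 and 150 TPM to 180, 215 and 206 TPM. Its lowest stimulated library lay below the highest in medium, and the log2 fold change of 0.32 (SE 0.12, adjusted p = 0.0388) lost its call under 8 of the alternatives, among them quantile normalization (0.15, adjusted p = 0.210) and leaving out medium replicate 1 or 3, stimulated replicate 2 or 3 or TRAIL-treated replicate 2 (adjusted p = 0.0563 to 0.122). It was 0.40 without stimulated replicate 1 (adjusted p = 0.0178).

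Of the enzymes and the exchange factor, Plcg1 measured 107, 133 and 114 TPM in medium and 63.3, 97.1 and 92.9 TPM after stimulation, with no overlap. Its log2 fold change was -0.50 (SE 0.19, adjusted p = 0.0395), but it was -0.30 (adjusted p = 0.124) without stimulated replicate 1 and -0.19 (adjusted p = 0.141) after correction for transcript length. It also missed the threshold without medium replicate 1, 2 or 3 (adjusted p = 0.0504, 0.126 and 0.0698) or without TRAIL-treated replicate 2 (adjusted p = 0.0549), which enters through the pooled spread. Vav1, the Rac exchange factor, measured 135, 159 and 131 TPM in medium and 135, 174 and 174 TPM after stimulation. The groups overlapped and the log2 fold change of 0.18 (95% interval -0.14 to 0.49) did not pass (adjusted p = 0.283), although it did under median-of-ratios scaling (0.34, adjusted p = 0.0111). The value was 0.30 without stimulated replicate 1 (adjusted p = 0.0638). Fyn, the second Src family kinase of T cells beside Lck, measured 160, 204 and 166 TPM in medium and 121, 160 and 161 TPM after stimulation, which also overlapped, and its log2 fold change was -0.26 (95% interval -0.64 to 0.12, adjusted p = 0.192), or -0.42 under quantile normalization (adjusted p = 0.0241). The value was -0.13 without stimulated replicate 1 (adjusted p = 0.505).

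Among the surface receptors, Cd28 measured 117, 129 and 114 TPM in medium and 140, 166 and 160 TPM after stimulation. All stimulated libraries were higher, with a log2 fold change of 0.37 (SE 0.10, adjusted p = 0.00730), or 0.44 (adjusted p = 0.00199) without stimulated replicate 1. Cd6, which encodes a receptor for ALCAM, measured 188, 228 and 190 TPM in medium and 227, 302 and 300 TPM after stimulation. Stimulated replicate 1 fell just short of medium replicate 2, and the log2 fold change was 0.45 (SE 0.15, adjusted p = 0.0229), rising to 0.58 (adjusted p = 0.00398) without stimulated replicate 1 and not passing under quantile normalization (0.29, adjusted p = 0.0758). Leaving out medium replicate 1 or 3 or stimulated replicate 2 or 3 also ended the call (adjusted p = 0.0727 to 0.0785). Cd5, which encodes an inhibitory receptor of the same family, measured 235, 286 and 239 TPM in medium and 253, 293 and 292 TPM after stimulation. These overlapped and did not pass (log2 fold change 0.14, 95% interval -0.13 to 0.42, adjusted p = 0.318), whereas they did pass under median-of-ratios scaling (0.30, adjusted p = 0.0119). Their difference was 0.21 without stimulated replicate 1 (adjusted p = 0.161). With that library left out, 5 of the 9 genes passed in this comparison, Lcp2, Cd28 and Cd6 as higher and Lat and Grap2 as lower. Over all genes, 9743 to 10671 passed here when each library was left out in turn, beside 10678 (68.7% of those tested) with all libraries.

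The second comparison was that of TRAIL-treated activated T cells with cells activated without TRAIL, which asks what TRAIL engagement changed under the same stimulation. Grap2, Cd28, Fyn, Plcg1 and Lat were higher with TRAIL, and none of the 9 genes passed as lower. The 5 that passed stand against 67.1% of all genes tested (33.5% higher and 33.5% lower). Grap2 alone reached a change of 1 on the log2 scale, as 30.9% of all genes did. The libraries did not overlap for 4 of the 9 genes, Lat, Grap2, Fyn and Cd28, all higher, compared with 70.4% of all genes (35.5% higher and 34.9% lower). The median log2 fold change of the 9 genes was 0.46, beside 0.01 for all genes. Both this comparison and the previous one use the stimulated libraries, so a low stimulated value lowers one difference and raises the other.

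Grap2 measured 302, 268 and 239 TPM with TRAIL, each far above the highest stimulated library of 101 TPM. The log2 fold change was 1.75 (SE 0.24, adjusted p = 9.20e-05), or 3.24-fold by the ratio of means, and 1.41 (adjusted p = 3.58e-06) without stimulated replicate 1. Lat measured 564, 584 and 555 TPM with TRAIL, above the 396 to 435 TPM of stimulated cells in every library (log2 fold change 0.46, SE 0.08, adjusted p = 0.000554). It was 0.51 without stimulated replicate 1 (adjusted p = 0.000391). Lcp2 measured 187, 174 and 149 TPM with TRAIL, which overlapped the stimulated libraries. Its log2 fold change of -0.24 (95% interval -0.51 to 0.04) did not pass (adjusted p = 0.111), although it did without stimulated replicate 1 (-0.31, adjusted p = 0.0487) and after length correction (-0.20, adjusted p = 0.0390).

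Fyn measured 250, 233 and 170 TPM with TRAIL, against 121, 160 and 161 TPM without it. All 3 TRAIL-treated libraries were higher, the third by a small margin, and the log2 fold change of 0.55 (SE 0.17, adjusted p = 0.0149) no longer passed without TRAIL-treated replicate 1 (0.44, adjusted p = 0.0614) or replicate 2 (0.49, adjusted p = 0.0552). It was 0.42 without stimulated replicate 1 (adjusted p = 0.0450). Plcg1 measured 145, 123 and 95.02 TPM with TRAIL, the last of which lay within the stimulated libraries, and its log2 fold change of 0.52 (SE 0.19, adjusted p = 0.0336) fell to 0.33 (adjusted p = 0.102) without stimulated replicate 1. It did not pass without TRAIL-treated replicate 1 or replicate 2 either (adjusted p = 0.128 and 0.0850). Vav1 measured 143, 138 and 110 TPM with TRAIL, overlapping the stimulated libraries. The log2 fold change of -0.30 (adjusted p = 0.0804) did not pass, but it did without stimulated replicate 1 (-0.43, adjusted p = 0.0149) and under median-of-ratios scaling (-0.28, adjusted p = 0.0269).

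Cd28 measured 240, 237 and 213 TPM with TRAIL. Each of these libraries was above every stimulated library, and the log2 fold change was 0.56 (SE 0.10, adjusted p = 0.000536), or 1.48-fold by the ratio of means. It was 0.49 without stimulated replicate 1 (adjusted p = 0.00104). Cd5 measured 314, 285 and 243 TPM with TRAIL, which overlapped the 253 to 293 TPM without it. Its log2 fold change was 0.00051 with a 95% interval from -0.27 to 0.27 (adjusted p = 0.998), and -0.068 (adjusted p = 0.650) without stimulated replicate 1. Cd6 measured 248, 223 and 182 TPM with TRAIL, lower than in stimulated replicates 2 and 3 but overlapping replicate 1. The difference of -0.34 on the log2 scale (adjusted p = 0.0658) passed without stimulated replicate 1 (-0.48, adjusted p = 0.0111), without TRAIL-treated replicate 1 (-0.44, adjusted p = 0.0379), under median-of-ratios scaling (-0.32, adjusted p = 0.0209) and after correction for transcript length (-0.43, adjusted p = 0.000863). With stimulated replicate 1 left out, 7 of the 9 genes passed in this comparison, Lat, Grap2, Fyn and Cd28 as higher and Lcp2, Vav1 and Cd6 as lower. Over all genes, 9540 to 10380 passed here when each library was left out in turn, beside 10420 (67.1% of those tested) with all libraries.

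**Figure D2:**
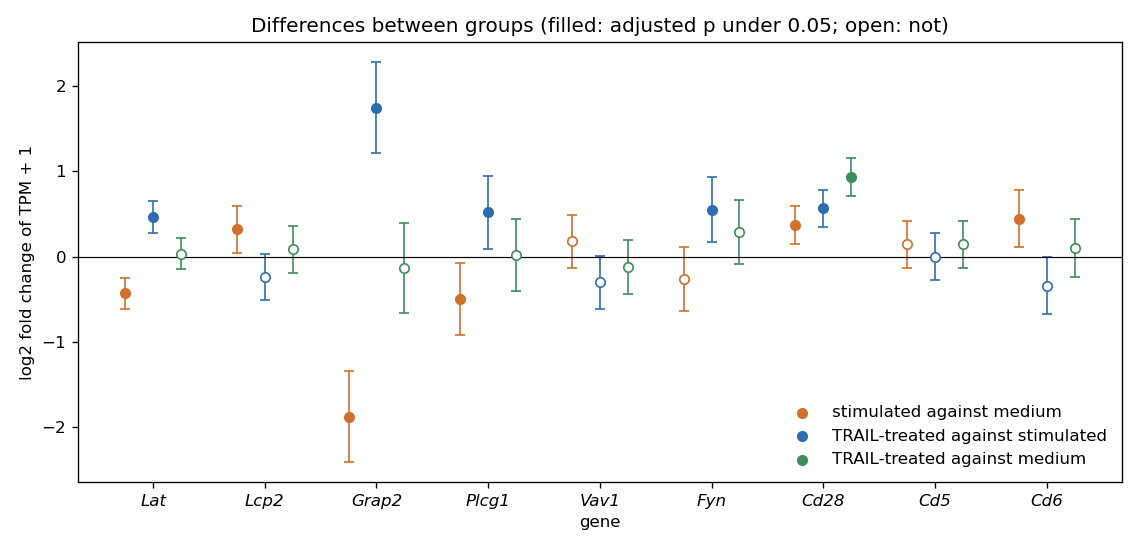
Log2 fold change of TPM + 1 (vertical axis) for each of the 9 genes in the 3 comparisons, with 95% intervals from limma on 3 libraries per group. Filled points have an adjusted p under 0.05. Grap2 has a point at -1.88 for stimulated against medium and at 1.75 for TRAIL-treated against stimulated, and Cd28 has the one filled point for TRAIL-treated against medium, at 0.93.

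The third comparison, of TRAIL-treated activated T cells with cells in medium, asks whether the transcripts differed from those of cells that received no Abs. Cd28 was 1.92-fold higher by the ratio of means, with all 3 TRAIL-treated libraries (213 to 240 TPM) above all 3 in medium (114 to 129 TPM), and its log2 fold change was 0.93 (SE 0.10, adjusted p = 0.000135). It was 1 of the 9 genes to pass, against 32.6% of all genes tested (8.03% higher and 24.6% lower), and 1 of the 9 whose libraries did not overlap, against 50.6% of all genes (12.4% higher and 38.2% lower). The other 8 genes had log2 fold changes between -0.13 (Grap2) and 0.29 (Fyn). For Lat the 95% interval was -0.15 to 0.21 and for Cd5 it was -0.13 to 0.42, whereas for Grap2 it was wider, -0.66 to 0.40. The change of Cd28 did not reach 1 on the log2 scale, a size that 4.62% of all genes reached. The median of the 9 genes was 0.08, beside -0.18 for all genes.

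This last count depended on how the libraries were scaled. Among genes that passed in TRAIL-treated against medium cells, 24.6% were higher as deposited, 46.3% once rescaled by median-of-ratios and 42.4% after quantile normalization. The first of these rescalings shifted the median of all log2 fold changes by 0.16 here, by 0.14 in stimulated against medium and by 0.02 in TRAIL-treated against stimulated cells. With it Fyn (0.47, adjusted p = 0.0213) and Cd5 (0.33, adjusted p = 0.0236) passed beside Cd28. After a correction for transcript length, added after seeing the data, Lat, Lcp2, Fyn, Cd5 and Cd6 passed as higher beside Cd28, with log2 fold changes of 0.25 to 0.51, and 47.7% of all genes that passed were higher. Cd28 passed under each of these scalings, at 0.93 to 1.14.

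**Figure D3:**
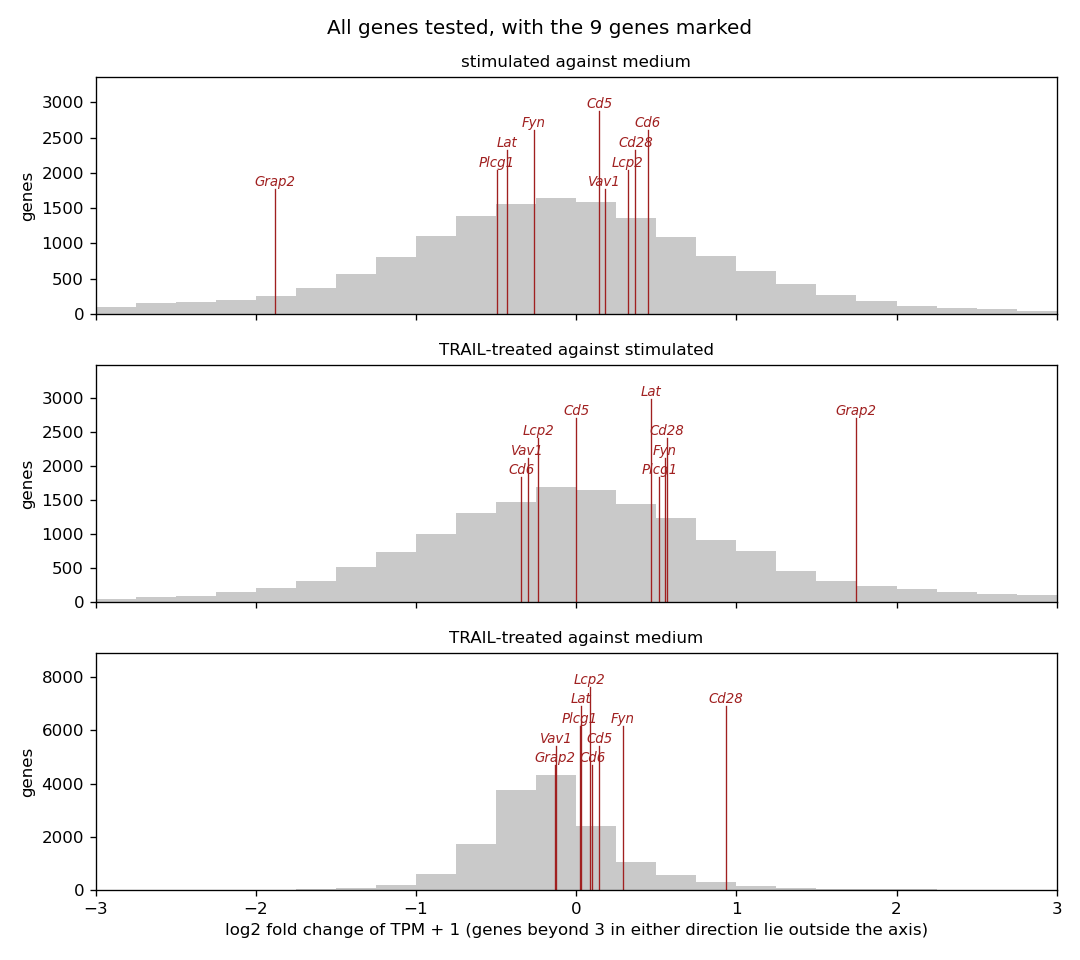
Number of genes (vertical axis) by log2 fold change of TPM + 1 (horizontal axis, bins of 0.25, shown from -3 to 3) for the 15536 genes tested in each comparison, with the 9 genes marked in red. Grap2 lies in the tails of the first 2 panels, while Cd28 at 0.93 lies to the right of most genes in the last panel and the other 8 genes lie between -0.13 and 0.29.

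Ratios of the TPM of 2 genes within a library do not depend on its scaling. They were compared, on log2 with 1 added to each TPM, by an exact two-sided permutation test of 3 libraries against 3, whose smallest possible p is 0.1, so no ratio could pass a threshold of 0.05, and p was adjusted over 18 comparisons. The ratio of Grap2 to Lcp2, whose proteins bind each other, was 1.84 ± 0.0456 in medium, 0.409 ± 0.117 after stimulation and 1.58 ± 0.0420 with TRAIL (mean ± SD, n = 3). The 3 groups did not overlap in any comparison (exact p = 0.1, adjusted p = 0.129 in each), and the difference of the log2 ratio was -2.20 for stimulated against medium and 1.99 for TRAIL-treated against stimulated cells. The ratio thus remained below medium with TRAIL, by 0.22 on the log2 scale. The ratio of Lat to Cd3e, which encodes a chain of the CD3 complex, was 1.41 ± 0.193, 1.12 ± 0.105 and 1.93 ± 0.234 in the same order, and the TRAIL-treated libraries were above those of both other groups (exact p = 0.1, adjusted p = 0.129).

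The ratio of Fyn to Lck, the kinases that act first, was 0.334 ± 0.0192 in medium, 0.384 ± 0.0411 after stimulation and 0.455 ± 0.0406 with TRAIL. It was higher with TRAIL than in medium in every library (exact p = 0.1, adjusted p = 0.129), but the stimulated libraries overlapped both (exact p = 0.2). Cd28 relative to Ctla4, which encodes the inhibitory receptor for the same ligands, was 1.87 ± 0.377 in medium, 0.635 ± 0.0444 after stimulation and 1.37 ± 0.254 with TRAIL, and relative to Icos it was 2.72 ± 0.399, 1.02 ± 0.0858 and 2.02 ± 0.196. Stimulated libraries were lowest in both ratios, with no overlap (exact p = 0.1, adjusted p = 0.129). The ratio of Cd5 to Cd6 was close to constant in medium, at 1.25, 1.26 and 1.26, and was 1.12, 0.971 and 0.974 after stimulation and 1.27, 1.28 and 1.34 with TRAIL. For these neighbouring genes the stimulated libraries lay below the others without overlap (exact p = 0.1, adjusted p = 0.129). With stimulated replicate 1 left out, the differences of the log2 ratio of Grap2 to Lcp2 were -1.94 for stimulated against medium and 1.72 for TRAIL-treated against stimulated cells. Those of Fyn to Lck went from 0.20 to 0.29 and from 0.24 to 0.15. The differences of all 6 ratios kept their sign in both comparisons with that library left out.

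**Figure D4:**
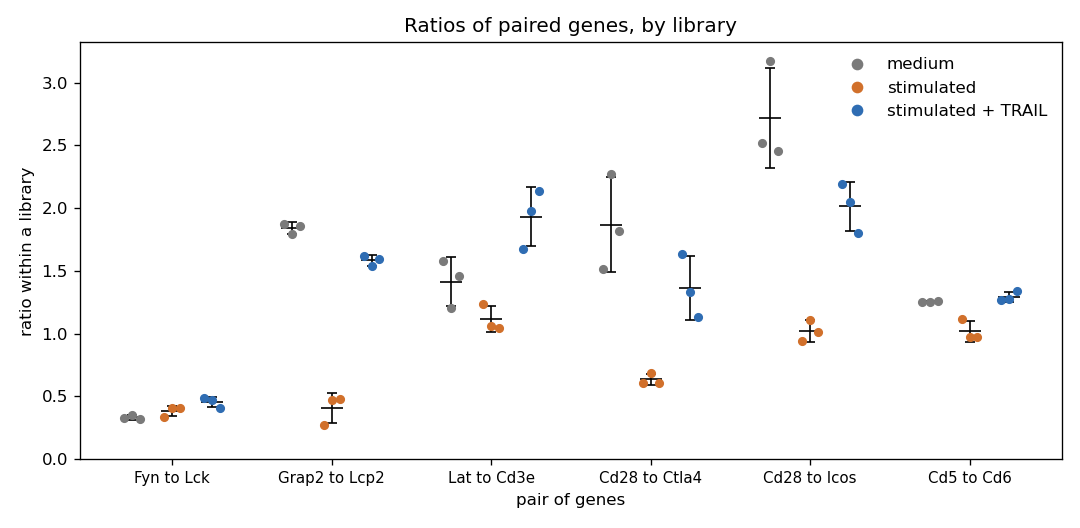
Ratio of the TPM of 6 pairs of genes within each library, on a linear vertical axis from 0. Colours mark medium (grey), stimulated (orange) and stimulated with TRAIL (blue), and black bars the mean ± SD of 3 libraries. Grap2 to Lcp2 drops from about 1.84 to 0.409 and is 1.58 with TRAIL, and the stimulated libraries are also lowest for Cd28 to Ctla4 and Cd28 to Icos.

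The genes were next set beside their paralogs. Of 15 paralogs, 3 passed as higher and 8 as lower in stimulated against medium cells, 6 as higher and 5 as lower with TRAIL against stimulated cells, and 2 as higher and 5 as lower with TRAIL against medium. Means are given in the order medium, stimulated and stimulated with TRAIL. Lck, the paralog of Fyn, averaged 527, 382 and 475 TPM. It fell after stimulation (log2 fold change -0.46, adjusted p = 0.00329) and was higher with TRAIL (0.31, adjusted p = 0.0264). Yes1 and Src, other Src family kinases, were at or below 2.96 TPM in every library. Grb2, the ubiquitous relative of Grap2, averaged 157, 155 and 112 TPM, with a log2 fold change of -0.45 for TRAIL-treated against stimulated cells (adjusted p = 0.00849), the opposite sign to Grap2. Grap, another relative, averaged 177, 145 and 159 TPM and changed by -0.29 after stimulation (adjusted p = 0.00828). Vav2 and Vav3 averaged 11.1 to 36.7 TPM over the groups and passed in no comparison. Without stimulated replicate 1, 4 paralogs passed as higher and 8 as lower after stimulation, and 5 as higher and 7 as lower with TRAIL against stimulated cells. In the latter comparison Lck then missed the threshold (0.27, adjusted p = 0.0630), and Vav2 (-0.42, adjusted p = 0.0107) and Vav3 (-0.33, adjusted p = 0.0343) passed.

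Ctla4 and Icos, the relatives of Cd28, rose with stimulation from 65.4 to 244 TPM and from 44.5 to 152 TPM, with log2 fold changes of 1.90 and 1.76 (adjusted p = 6.44e-07 and 5.45e-08). With TRAIL they averaged 171 and 114 TPM, lower than in stimulated cells by 0.52 and 0.41 on the log2 scale (adjusted p = 0.00572 and 0.00200), while Cd28 was higher. Against medium all 3 receptors passed as higher with TRAIL, at 0.93 for Cd28, 1.38 for Ctla4 and 1.34 for Icos. Lat2, Blnk and Plcg2 are the relatives of Lat, Lcp2 and Plcg1 used in B cells and myeloid cells. They averaged 64.0, 71.9 and 79.5 TPM in medium, 17.8, 20.1 and 23.4 TPM after stimulation and 33.2, 34.7 and 40.6 TPM with TRAIL. All 3 fell after stimulation by 1.74 to 1.79 on the log2 scale and were higher with TRAIL than in stimulated cells by 0.76 to 0.87, and the B cell and myeloid markers moved in the same directions. Clnk, the remaining relative of Lcp2, was at or below 2.67 TPM. Cd5l and Cd163, scavenger receptor relatives of Cd5 and Cd6 made by macrophages, averaged 89.0 and 28.5 TPM in medium and 95.3 and 29.6 TPM with TRAIL. After stimulation Cd5l averaged 3.09 TPM, while Cd163 was listed at the floor of 0.0001 TPM in 2 of 3 libraries, so no fold is given for it. The largest fall among the 9 genes was that of Grap2, with a log2 fold change of -1.88. It was -4.46 for Cd5l and -1.74 to -1.79 for Lat2, Blnk and Plcg2.

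Most genes of the other adaptor and enzyme lists were lower after stimulation and higher with TRAIL. Counts are given beside the shares of all genes tested quoted above. Of 23 other adaptors and scaffolds, 18 passed as lower and 1 as higher after stimulation, and 15 as higher and 3 as lower with TRAIL against stimulated cells. Trat1, a transmembrane adaptor of the TCR complex, averaged 66.7, 3.00 and 58.7 TPM in the 3 groups, with log2 fold changes of -4.08 after stimulation and 3.90 with TRAIL. Sit1, a further transmembrane adaptor, changed by -2.31 and 1.97, and Lax1 fell by 1.97 after stimulation. Sh2d1a, which encodes SAP, was higher with TRAIL by 1.92. In TRAIL-treated against medium cells 1 of the 23 passed as higher, Sh2d2a at 1.10, and 6 as lower, among them Sh3bp2 at -0.84 and Dok1 at -0.51.

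Of 17 enzymes and exchange factors that act after LAT, 13 fell and none rose after stimulation, and 14 were higher and none lower with TRAIL. The median log2 fold changes were -0.90 and 1.05, against -0.15 and 0.01 for all genes. Dgka, a diacylglycerol kinase that removes the product of PLC-γ1, changed by -1.93 after stimulation and 1.97 with TRAIL on the log2 scale, and Pik3r1, the regulatory subunit of phosphoinositide 3-kinase, by -1.67 and 1.66. Against medium 3 passed as higher with TRAIL, among them Bcl10 (0.96) and Itpkb (0.62), and 2 as lower, among them Rac2 (-0.39).

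Of 11 genes of the TCR complex and proximal kinases, 6 passed as lower and 1 as higher after stimulation, and 6 as higher and 2 as lower with TRAIL. Txk, a Tec family kinase, changed by -1.48 and 1.54, Cd3g by -1.04 and 0.99, Ptprc (CD45) by -0.82 and 0.64, and Cd4 by -0.81 and 0.81. Against medium none was higher with TRAIL, and Csk and Cd3e were lower (-0.70 and -0.42). The other costimulatory and coinhibitory receptors differed in kind. Of 15, 8 rose and 6 fell after stimulation, and 6 were higher and 7 lower with TRAIL. Tnfrsf4 (OX40), Tnfrsf9 (4-1BB) and Tnfrsf18 (GITR) rose by 4.39, 3.77 and 3.23 and were lower with TRAIL by 3.64, 3.80 and 2.99 on the log2 scale, in contrast with Cd28, which was higher in both comparisons. In TRAIL-treated against medium cells 4 of the 15 were higher and 4 lower, the latter including Btla at -0.91. Without stimulated replicate 1, 17 adaptors and scaffolds passed as lower and 3 as higher after stimulation, as did 13 and 1 of the enzymes and exchange factors, 6 and 2 of the TCR complex and proximal kinases, and 6 and 8 of the other receptors. With TRAIL against stimulated cells the counts of higher and lower were then 15 and 3, 14 and 0, 5 and 2, and 6 and 7 in the same order. The gene that rose among the enzymes was Sos2, at 0.39 (adjusted p = 0.00660), named after its value was seen.

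**Figure D5:**
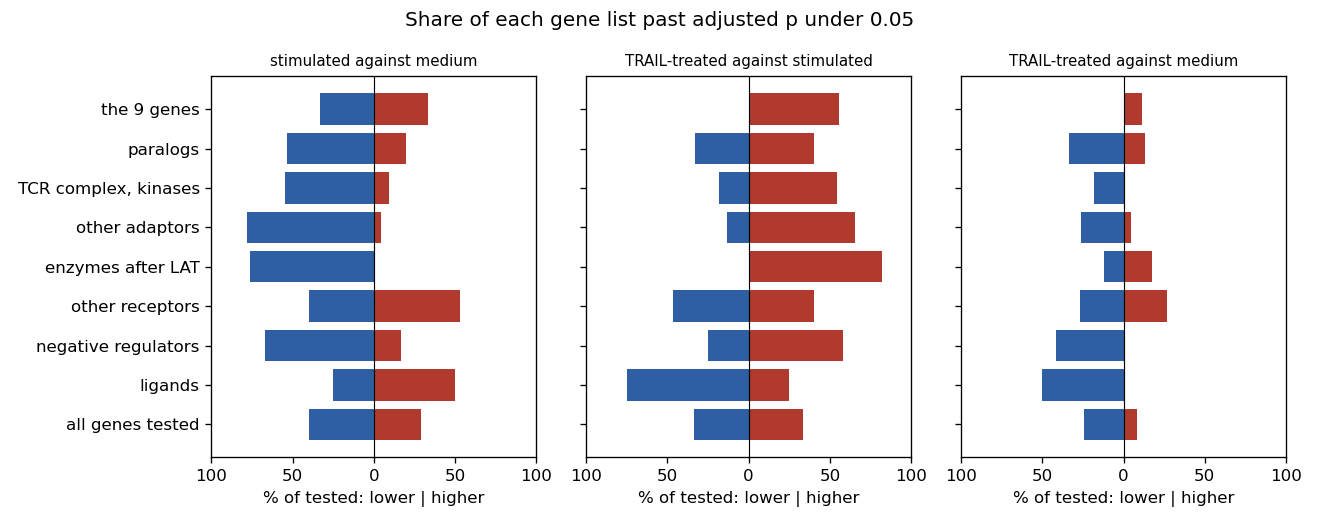
Percentage of the tested genes of each list that passed at an adjusted p under 0.05 (horizontal axis), with genes that passed as lower drawn to the left in blue and as higher to the right in red, for the 3 comparisons. Among enzymes after LAT, 13 of 17 are lower after stimulation and 14 of 17 higher with TRAIL, while the 9 genes divide into 3 higher and 3 lower in the first panel and 5 higher and none lower in the second.

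The genes differed in pattern among themselves. Patterns were compared by the root mean square difference of log2(TPM + 1), centred on the mean of each gene, over the 9 libraries. The closest pair was Lcp2 and Cd6 (0.0811), followed by Lcp2 and Vav1 (0.102) and Lcp2 and Cd5 (0.103), and the most distant was Grap2 and Cd6 (1.06). Grap2 was at least 0.634 from every other member, the nearest being Plcg1. Among 8908 tested genes that averaged 10 TPM or more, with symbols that begin with Gm and a digit or end in Rik left out, those most like Grap2 were Pag1 (0.0747) and Kif21b (0.0821). Pag1 encodes the membrane adaptor that holds Csk, and averaged 54.6, 13.9 and 50.8 TPM in the 3 groups. Those most like Cd28 were Tagap (0.0933) and Sde2 (0.115). The nearest to Lcp2 were Ppp2r2a (0.0427) and Rnf220 (0.0445), to Plcg1 Sun1 (0.0641) and Galnt6 (0.0652), to Vav1 Hif1an (0.0434), and to Fyn Cbfa2t2 (0.0801) and Uvrag (0.0837). For Lat they were Rnf138 (0.0678) and Nt5dc1 (0.0730), for Cd5 Agap3 (0.0434) and Med26 (0.0480) and for Cd6 Mark4 (0.0532) and Cox10 (0.0567). Such distances also reflect what a library shares across genes, including its length dependence.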

How the data were processed

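RNA-seq of 9 libraries in 3 groups of 3 was used. According to the paper and the submitters' processing notes, the authors trimmed reads with Trimmomatic 0.36, aligned them with HISAT2 2.1.0, used SAMtools 1.2 and StringTie 2.1.2, and normalized with DESeq2. The paper names GRCm38 as the genome and the notes GRCh38, and the loci in the file are those of GENCODE M21 (GRCm38). The table the authors deposited holds TPM, so the count-based normalization was not repeated here and depth is unknown.

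Groups came from the labels. The 9 libraries entered 1 linear model on log2(TPM + 1) in limma 3.58.1 (R 4.3.3), with 1 mean per group, no replicate block and empirical Bayes moderation with a variance trend, and p was adjusted over 15536 genes. On this scale the changes of low genes are understated. A gene passed at an adjusted p under 0.05. The test of within-library ratios also used a pseudocount of 1. The test was checked only on simulated data with independent noise for each gene and few changed genes. Those data lacked the length dependence that genes of a library share, so the check does not cover it. Figures used matplotlib 3.10.9 in Python 3.11.15. The columns of all 9 libraries were used.

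Named were all 9 genes, their paralogs, up to 3 genes with the largest change per other list and comparison among those that passed and averaged 10 TPM or more in a group, genes of the ratio pairs, and the 2 genes nearest to each member. Of the genes named by this rule, 2 are not reported here. Members and lists were chosen with earlier results of these data known. As alternatives, the pseudocount, low-value filter, scaling (median-of-ratios or quantile), variance trend and threshold were varied, the fit was limited to both groups compared or given a replicate block, and each library was left out. Correction for transcript length (lowess, span 0.3, on the longest transcript, known for 15519 of the genes tested) was added after seeing the data, as were the counts of the lists and the ratios without stimulated replicate 1.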

Additional observations from a re-analysis of the deposited data

How the results depend on the processing

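The 6 genes that passed in stimulated against medium cells became 3 without a filter on low values and 1 when a change of at least 1 on the log2 scale was also asked for, and 3 to 6 when each library was left out in turn (3 without medium replicate 1 or 3). The 5 that passed in TRAIL-treated against stimulated cells became 1 at that threshold and 3 to 7 with a library left out (3 without TRAIL-treated replicate 2, 7 without stimulated replicate 1). The 1 in TRAIL-treated against medium cells became 3 under median-of-ratios scaling, 6 after length correction and 0 at that threshold (5063 of all genes had passed without it), and was 1 with any library left out. Over all genes, 3283 to 6216 passed in this comparison with a library left out, the former without TRAIL-treated replicate 3, against 5063 with all. Directions turned only for differences that had not passed. These were Cd5 in stimulated against medium cells under quantile normalization (-0.017), and Cd5 in TRAIL-treated against stimulated cells with a library left out (-0.0841 to 0.0994). In TRAIL-treated against medium cells they were Lat under quantile normalization (-0.10), Grap2 and Vav1 under median-of-ratios scaling (0.0509 and 0.0572) and after length correction (0.0514 and 0.10), and Plcg1 with a library left out (-0.12 to 0.18). The cause of these changes was not tested. The calls of Lat, Grap2 and Cd28 in both comparisons with stimulated cells were kept under each alternative other than the threshold of 1. Leaving out each replicate in turn moved the log2 fold change of Grap2 between -2.06 and -1.54 and between 1.41 and 1.92 in those comparisons, and that of Cd28 in TRAIL-treated against medium cells between 0.90 and 0.99.

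Whether the replicate numbers pair the libraries could not be told. Deviations of libraries with the same number correlated at -0.455 to 0.425, and 4 of 9 pairs were over 0.1. Libraries with different numbers reached -0.511 and 0.415. Deviations from a mean of 3 libraries depend on each other and ran with transcript length, so these correlations cannot show or exclude a shared origin. With a replicate block, 6, 5 and 1 of the 9 genes passed in the 3 comparisons, as without it, and 10494, 10299 and 4538 of all genes did. Each group has 3 libraries, and the deposited TPM values carry neither depth nor counting error, so only the spread between libraries sets what could be detected.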

Other observations

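Genes that bind the adaptors, CD5 or CD6, most of them negative regulators, moved in both directions. Of 12 such genes, 8 passed as lower and 2 as higher in stimulated against medium cells. In TRAIL-treated against stimulated cells 7 passed as higher and 3 as lower. In TRAIL-treated against medium cells 5 passed as lower and none as higher. Ptpn6, which encodes the phosphatase SHP-1, averaged 555, 337 and 305 TPM in the order medium, stimulated and stimulated with TRAIL. Its log2 fold change was -0.73 after stimulation (adjusted p = 0.000392) and -0.86 for TRAIL-treated against medium cells (adjusted p = 0.000787), and the difference between TRAIL-treated and stimulated cells did not pass (-0.14, adjusted p = 0.348). Cblb, a ubiquitin ligase, averaged 67.3, 197 and 70.9 TPM, and was the gene of this list that went furthest against the others, at 1.48 after stimulation and -1.40 with TRAIL. Dok3, an adaptor of B cells and myeloid cells, averaged 115, 4.66 and 52.9 TPM, and the sums of B cell and myeloid markers were lowest in the same libraries. Inpp5d fell by 1.10 after stimulation, Ptpn22 was higher with TRAIL by 0.79, and Map4k1 was lower than medium with TRAIL by 0.70.

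Of 5 ligands of CD28, its relatives and CD6, 4 were tested. Cd80 averaged 3.84, 9.06 and 4.19 TPM and Cd86 averaged 36.0, 44.9 and 34.9 TPM in the same order, and both passed as higher after stimulation and as lower with TRAIL. Alcam, the ligand of CD6, averaged 8.95, 11.1 and 5.21 TPM and was lower with TRAIL than in stimulated cells by 0.98 on the log2 scale (adjusted p = 0.000164). Icosl averaged 60.2, 2.50 and 23.9 TPM. Cdcp1 was under 1 TPM in every library and was not tested. Of 6 activation genes, 2 rose and 3 fell after stimulation, 1 was higher and 2 lower with TRAIL against stimulated cells, and 1 was higher and 1 lower with TRAIL against medium. Il2ra, which encodes CD25, averaged 24.0, 868 and 23.2 TPM. Il2, which encodes the T cell growth factor IL-2, averaged 0.278, 15.3 and 0.494 TPM. It rose by 3.59 on the log2 scale after stimulation (adjusted p = 1.06e-06). Its log2 fold change was -3.36 with TRAIL against stimulated cells (adjusted p = 1.83e-06). Il2 reached 1 TPM only in the 3 stimulated libraries (9.27 to 23.3 TPM) and lay between 0.116 and 0.718 TPM elsewhere. It thus met the filter on low values only through the group where it was high. Both of its p-values were favoured by that selection, as was its place in the counts of activation genes above. Cd69, an early activation marker, averaged 448, 380 and 733 TPM. Its log2 fold change was -0.23 after stimulation (adjusted p = 0.160, not passed), 0.93 with TRAIL against stimulated cells (adjusted p = 0.000151) and 0.70 with TRAIL against medium (adjusted p = 0.00407).

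Without stimulated replicate 1, 3 genes of the list with the negative regulators passed as higher and 8 as lower after stimulation. With TRAIL against stimulated cells 6 passed as higher and 4 as lower. Ptpn6 then passed in the latter comparison (-0.26, adjusted p = 0.0346). The counts of the ligands were the same. Of 5 activation genes then tested (Il2 no longer met the filter on low values), 1 rose and 3 fell after stimulation, and 1 was higher and 2 were lower with TRAIL, the latter being Il2ra and Mki67 (-0.40, adjusted p = 0.00408). The sign of Mki67 in this comparison turned and its call arose with that library left out, since its log2 fold change was 0.071 (adjusted p = 0.850) with all libraries.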
